A study of Mus musculus with 10 samples.

Results

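The genes described here are 10 members of the transforming growth factor-beta (TGF-beta) and bone morphogenetic protein (BMP) pathway in the mouse neural retina, chosen by name from the 54532 genes of the expression table: the ligand genes *Tgfb1*, *Tgfb2*, *Tgfb3*, *Inhba*, *Bmp2* and *Bmp4*, the receptor genes *Tgfbr1* and *Tgfbr2*, and the intracellular genes *Smad3* and *Smad7*. Whole neural retinas of 2-month-old BALB/c mice were compared after light damage (LD) and under normal light (NL). All mice were albino and spent 12 h in the dark before exposure, after which the LD group received 15000 lux and the NL group 200 lux, each for 1 day. RNA-seq was done on 5 NL samples (NL-1, NL-4, NL-5, NL-7 and NL-8) and 5 LD samples (LD-1, LD-4, LD-6, LD-7 and LD-8), called retinas below. The labels give neither the sex of the mice nor how many retinas went into a sample, and the tissue is a mixture of cell types, so that fewer cells of a type and less RNA per cell cannot be told apart.

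TGF-beta ligands are secreted in a latent form, stored in the extracellular matrix and released by integrins or proteases. The free ligand binds the type II receptor TGFBR2, which recruits and phosphorylates the type I receptor TGFBR1, and this receptor in turn phosphorylates SMAD2 and SMAD3, which enter the nucleus together with SMAD4. Activins use the same SMADs through other receptors, BMPs act through SMAD1, SMAD5 and SMAD9, and SMAD7 is an inhibitory SMAD that is itself induced by the pathway. In the retina TGF-beta is known as a signal to microglia, Müller glia and vessels, and BMPs for patterning of the eye in development.

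After 1 day of light, *Tgfb1* and *Tgfb2* were higher in LD than in NL retinas, by 2.24-fold and 2.05-fold on the scale of log2(FPKM + 0.1), and *Smad3* and *Tgfbr2* by 1.94-fold and 1.9-fold, each without overlap between the groups. *Tgfb3*, *Inhba*, *Bmp2*, *Bmp4*, *Tgfbr1* and *Smad7* overlapped between the groups and did not pass the test. Levels are in FPKM, the reads of a gene per kilobase of its length, scaled to the library size of the retina, and a log2 fold change is the LD mean minus the NL mean of log2(FPKM + 0.1). A gene is called changed when its adjusted p from limma, fitted over the 24508 genes that reached 0.1 FPKM in 5 or more retinas, was under 0.01 and its fold change above 2, which are the limits that the study used. By this rule 2 of the 10 members changed, both higher in LD, against 6.51% of all genes tested (4.13% higher and 2.37% lower). With the p limit alone 4 members passed, against 17% of all genes, and the same 4 had LD values entirely outside the NL values, against 22.4% of all genes. The median log2 fold change of the members was 0.15 and that of all genes was -0.01.

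**Figure D1:**
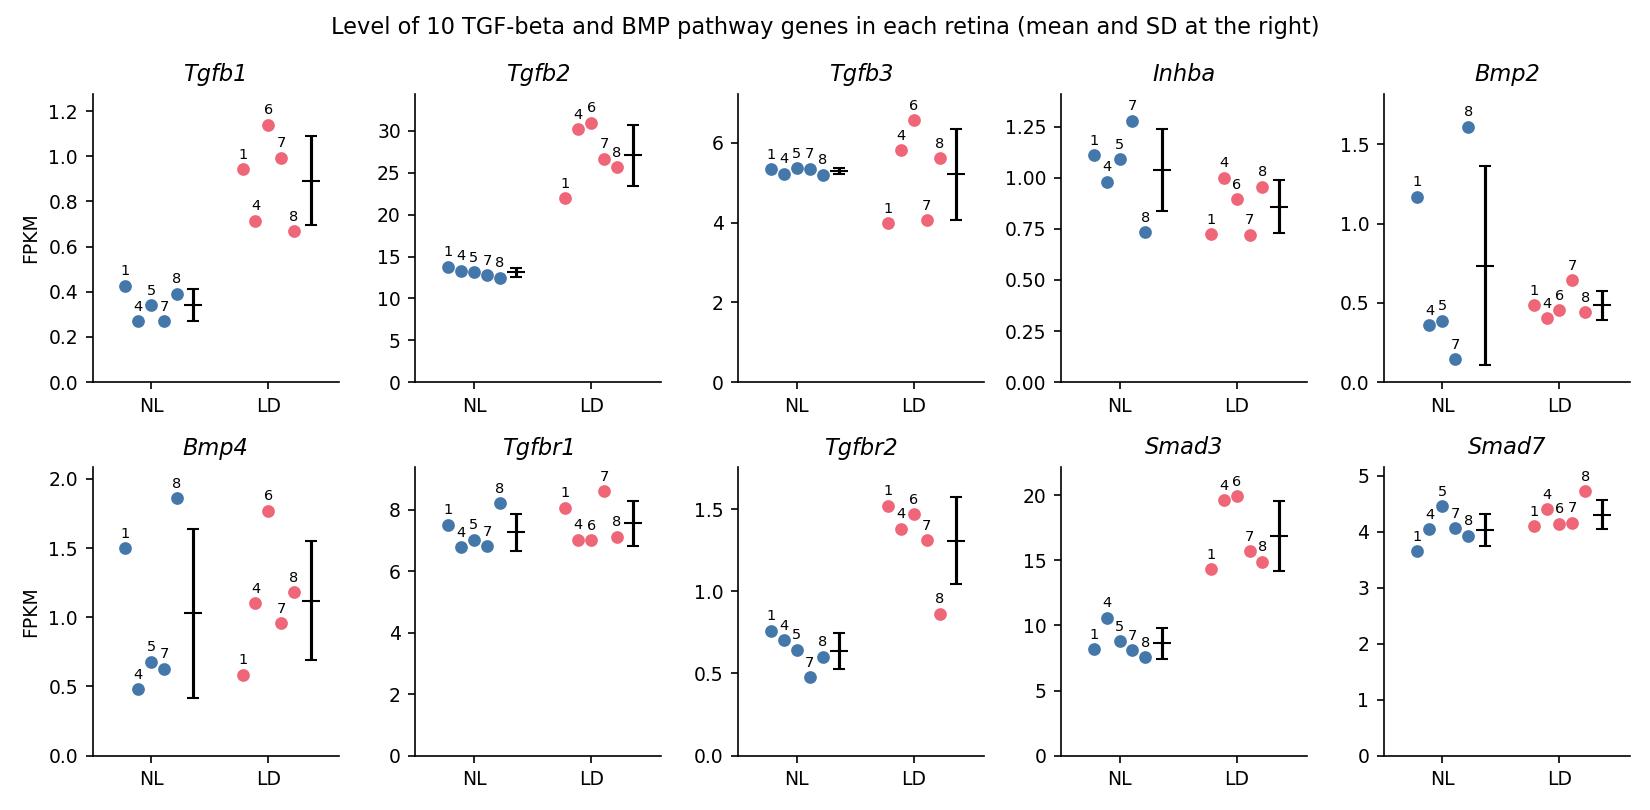
Level of each of the 10 genes (vertical axis, FPKM from 0, a scale of its own for each gene) in the 5 NL retinas (blue) and the 5 LD retinas (red), each point marked with its sample number, with the mean and SD of each group beside the points. The LD points of *Tgfb1*, *Tgfb2*, *Tgfbr2* and *Smad3* lie above every NL point, while the NL points of *Bmp2* reach from 0.146 to 1.61 FPKM.

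Depth was 21343389 to 26832535 reads in NL and 18965090 to 23378090 in LD. The samples were checked against markers of the labelled tissue: 5 rod photoreceptor genes (*Gnat1*, *Pde6b*, *Nrl*, *Rcvrn* and *Sag*) summed to 4641 to 5379 FPKM in NL and to 750 to 1517 FPKM in LD, and 5 of 5 were lower in LD. Retinas of a group were not all equally far apart. The counts of NL-5 and NL-7, of LD-1 and LD-7 and of LD-4 and LD-6 differed by a chi-square per gene of 2.71, 3.41 and 2.52, against 10.9 to 38.6 for all other pairs of a group, where sampling noise alone gives about 1. NL-1 and NL-8 both lay above the other 3 NL retinas in 16.3% of all genes tested. Where these retinas moved the call of a member or turned its sign, the result is given with and without them.

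The 4 members that passed the p limit lie at separate places in the genome (GRCm38): *Tgfb1* (ENSMUSG00000002603) at chr7:25687002-25705077 on the plus strand, *Tgfb2* (ENSMUSG00000039239) at chr1:186622792-186705989, *Tgfbr2* (ENSMUSG00000032440) at chr9:116084293-116175360 and *Smad3* (ENSMUSG00000032402) at chr9:63646767-63757994, all 3 on the minus strand. All are protein-coding. Their promoters are shown because these are the members that were higher together. Each sequence is the RefSeq promoter on GRCm38.p6, from 250 bases before to 50 bases after the RefSeq gene start (for *Tgfbr2* this start lies a few bases upstream of the one in the table), on the strand of the gene and 5′ to 3′, of the C57BL/6J reference and not of BALB/c. Capitals mark CAGAC, the letters of the SMAD-binding element.
*Tgfb1*, chr7:25686752-25687051: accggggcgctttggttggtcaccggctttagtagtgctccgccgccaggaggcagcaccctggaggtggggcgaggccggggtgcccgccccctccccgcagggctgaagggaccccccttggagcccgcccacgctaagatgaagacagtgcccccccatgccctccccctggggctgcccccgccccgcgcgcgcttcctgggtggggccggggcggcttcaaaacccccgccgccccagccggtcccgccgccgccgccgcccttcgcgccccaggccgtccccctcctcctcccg
*Tgfb2*, chr1:186705940-186706239: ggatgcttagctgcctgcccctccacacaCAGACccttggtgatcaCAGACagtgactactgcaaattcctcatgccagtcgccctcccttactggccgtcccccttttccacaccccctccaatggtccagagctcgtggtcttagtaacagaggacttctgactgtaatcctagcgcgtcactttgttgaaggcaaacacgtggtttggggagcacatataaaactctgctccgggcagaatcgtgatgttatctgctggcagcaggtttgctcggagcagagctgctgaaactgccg
*Tgfbr2*, chr9:116175314-116175613: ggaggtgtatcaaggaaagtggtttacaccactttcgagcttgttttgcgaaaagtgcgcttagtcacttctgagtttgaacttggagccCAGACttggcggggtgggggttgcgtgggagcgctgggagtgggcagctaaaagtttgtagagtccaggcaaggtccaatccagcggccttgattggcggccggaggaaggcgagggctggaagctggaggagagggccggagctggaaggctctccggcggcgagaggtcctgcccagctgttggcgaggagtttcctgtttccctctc
*Smad3*, chr9:63757945-63758244: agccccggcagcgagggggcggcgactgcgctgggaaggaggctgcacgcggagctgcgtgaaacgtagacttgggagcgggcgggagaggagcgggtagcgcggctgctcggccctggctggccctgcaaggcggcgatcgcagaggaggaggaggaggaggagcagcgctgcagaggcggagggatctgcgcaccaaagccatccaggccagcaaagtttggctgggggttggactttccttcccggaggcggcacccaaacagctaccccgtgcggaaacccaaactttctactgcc

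The *Tgfb2* promoter held CAGAC at 2 places, starting 221 and 204 bases before the RefSeq start, and the *Tgfbr2* promoter held it at 1 place, 160 bases before its own. The *Tgfb1* and *Smad3* promoters held none in these 300 bases. Searched on both strands, CAGAC stood in 49.6% of the 32851 promoters of the same length, so that its presence in 2 of the 4 is near the share of all promoters. None of the 4 held GGCGCC, the letters of a BMP-SMAD site, which stood in 11.9% of all promoters, or TGANTCA, the letters of an AP-1 site, which stood in 7.81%. The 3 motifs do not contain each other. GC content was 77% for *Tgfb1*, 67.7% for *Smad3*, 59% for *Tgfbr2* and 54.3% for *Tgfb2*, against a median of 52.7% over all promoters. The promoter of *Smad7* was not looked up, and one was found in the table for 7 of the 10 members.

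*Tgfb2* was by far the most abundant TGF-beta ligand gene per length. It measured 13.8, 13.3, 13.1, 12.8 and 12.5 FPKM in NL-1, NL-4, NL-5, NL-7 and NL-8, and 22, 30.2, 31, 26.7 and 25.7 FPKM in LD-1, LD-4, LD-6, LD-7 and LD-8. The NL retinas lay within a narrow range, and the lowest LD retina was above the highest of them. The mean was 13.1 ± 0.512 FPKM in NL and 27.1 ± 3.66 FPKM in LD (SD, n = 5 each). The log2 fold change was 1.04 (SE 0.09, 95% interval 0.85 to 1.22) with a limma adjusted p of 1.19e-05. The change lies at the 2-fold limit, and without LD-4 (0.99), without LD-6 (0.98) or with 1 in place of 0.1 added to the FPKM (0.99) it fell just under it, with adjusted p still under 0.01.

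*Tgfb1*, the isoform of immune cells and wound repair, was expressed at a far lower level. It measured 0.427, 0.271, 0.342, 0.271 and 0.392 FPKM in the NL retinas (in the order above) and 0.944, 0.714, 1.14, 0.993 and 0.668 FPKM in the LD retinas, which came from 29 to 51 reads in each NL retina and from 73 to 129 in each LD retina. No LD value reached down to the NL range, with LD-8 the lowest and LD-6 the highest of LD. The means were 0.34 ± 0.0703 and 0.892 ± 0.199 FPKM (SD, n = 5 each), the log2 fold change was 1.16 (SE 0.19, 95% interval 0.74 to 1.58) and the limma adjusted p was 0.00108. At this level the added constant matters: with 1 added to the FPKM the log2 fold change was 0.49, under the 2-fold limit, while it was 1.36 with 0.01 added, 1.37 in voom on the recovered reads and 1.42 as TPM, and averaging the 3 closest pairs gave a limma adjusted p of 0.016. Without NL-1 and NL-8 it was 1.31 (adjusted p = 0.00356).

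*Tgfb3* lay between both isoforms in level and had nearly the same mean in NL (5.3 FPKM) and LD (5.21 FPKM). Its NL values were 5.34, 5.22, 5.37, 5.35 and 5.2 FPKM, and its LD values were 3.98, 5.82, 6.57, 4.06 and 5.62 FPKM. LD-1 and LD-7 were below every NL retina, and LD-4, LD-6 and LD-8 were above every NL retina. The log2 fold change was -0.05 (SE 0.13, 95% interval -0.34 to 0.24), with a two-sided exact permutation p of 0.77, and its sign turned without LD-1 (0.04), without LD-7 (0.03), after rescaling to TPM (0.05) and without the scaling factor per retina that the deposited values carry (0.08). *Tgfb3* (chr12:86056745-86079041, minus strand) shares 5149 bases with *Ttll5* on the other strand, which measured 4.21 FPKM in NL and 4.8 in LD, and whether reads were counted by strand is not given in the sources used here.

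The makeup of the 3 TGF-beta genes differed between the groups, in a measure that does not depend on the scaling between retinas. *Tgfb2* made up 69 to 70.8% of their summed FPKM in NL and 80.1 to 84.1% in LD. *Tgfb3* made up 27.3 to 29.1% in NL and 12.8 to 17.5% in LD. The share of *Tgfb1* was 1.44 to 2.18% in NL and 1.94 to 3.51% in LD, and these ranges overlapped. The sum itself was 18.1 to 19.6 FPKM in NL and 26.9 to 38.7 FPKM in LD, and the ratio of *Tgfb2* to *Tgfb3* was 2.39 to 2.58 in NL and 4.58 to 6.56 in LD. These shares were not tested.

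**Figure D2:**
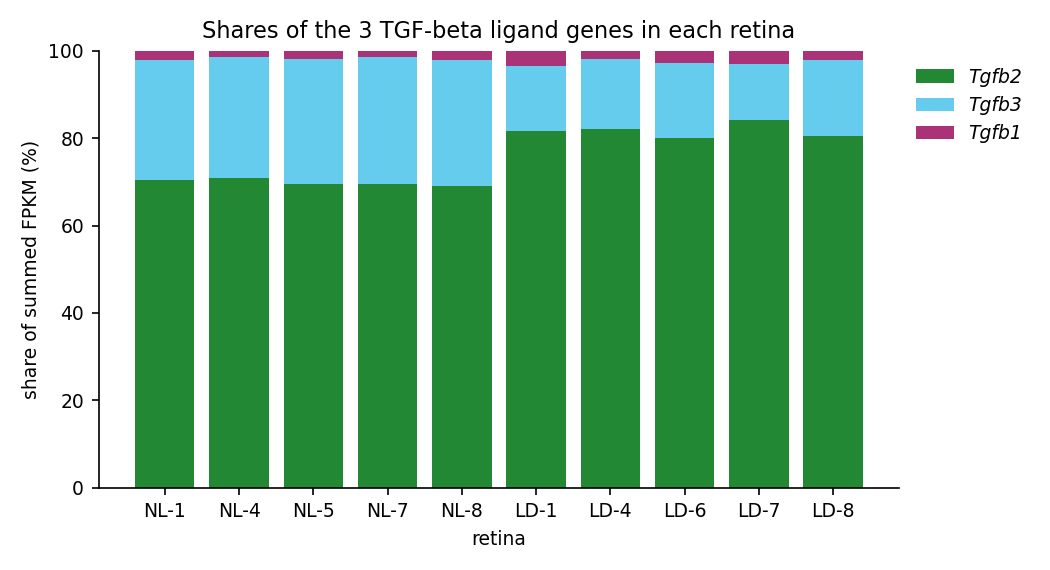
Share of *Tgfb1*, *Tgfb2* and *Tgfb3* (vertical axis, percent of their summed FPKM) in each of the 5 NL and 5 LD retinas, as stacked bars without error bars. The *Tgfb2* share is 69 to 70.8% in NL and 80.1 to 84.1% in LD, and the *Tgfb3* share is smaller in every LD retina than in any NL retina.

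*Inhba*, which encodes the beta A subunit of activin A, did not pass the test. It measured 1.11, 0.98, 1.09, 1.28 and 0.734 FPKM in NL and 0.725, 1, 0.895, 0.721 and 0.956 FPKM in LD. NL-4 and NL-8 lay within the LD range. The log2 fold change was -0.24 (SE 0.17, 95% interval -0.60 to 0.13; exact permutation p = 0.151), an interval that leaves out a change of 2-fold in either direction. *Inhba* (chr13:16011851-16031621, plus strand) overlaps *B230303A05Rik* on the other strand over 11573 bases, which was at 0.389 FPKM in NL and 0.371 in LD.

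The 2 BMP ligand genes varied most among the NL retinas. *Bmp2*, a ligand of the BMP receptors, measured 1.17, 0.358, 0.388, 0.146 and 1.61 FPKM in NL and 0.485, 0.402, 0.453, 0.642 and 0.442 FPKM in LD. The values of NL-1 and NL-8 stood above all LD values, and those of the other 3 NL retinas stood below all LD values. *Bmp4*, a ligand of the same receptors, measured 1.5, 0.482, 0.679, 0.629 and 1.86 FPKM in NL and 0.584, 1.1, 1.77, 0.957 and 1.18 FPKM in LD, and again NL-1 and NL-8 were the highest of NL.

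The log2 fold change was -0.17 (SE 0.47, 95% interval -1.22 to 0.87; exact permutation p = 0.81) for *Bmp2* and 0.20 (SE 0.38, 95% interval -0.63 to 1.03; exact permutation p = 0.619) for *Bmp4*. These intervals leave room for a 2-fold change in at least 1 direction, so that no statement on the direction of either gene can be made. Without NL-1 and NL-8 the value of *Bmp2* turned to 0.61 (limma adjusted p = 0.159), and without NL-1 alone or NL-8 alone it was 0.07 and 0.17. The value of *Bmp4* without NL-1 and NL-8 was 0.74 (limma adjusted p = 0.124). *Bmp2* lies at chr2:133552159-133562885 on the plus strand, and *Bmp4* at chr14:46383520-46390669 on the minus strand, where 1764 of its bases overlap *Gm15222* (0.052 FPKM in NL and 0.138 in LD).

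NL-1 and NL-8 also stood together above the other 3 NL retinas in *Tgfb1* and *Tgfbr1*, which makes 4 of the 10 members. Among the 99 tested genes of the wider pathway lists 33 had this order (33.3%), against 16.3% of all genes tested. The same order was found for 4 of 6 retinal pigment epithelium markers (*Lrat*, *Rgr*, *Rpe65* and *Ttr*) but not for *Best1* and *Slc26a7*. Some matrix genes of the lists also had it (*Ltbp1*, *Ltbp2*, *Fbn1*, *Thbs1* and *Col1a2*), while *Fn1* and *Col1a1* did not. *Ltbp2* measured 4.75 FPKM in NL-1, 2.05 in NL-8 and 0.161 to 0.205 in the other NL retinas. The 6 pigment epithelium markers summed to 84.5 FPKM in NL-1, 135 in NL-8 and 50 to 69 in the other NL retinas. In LD they summed to 57.3 to 112 FPKM, and 0 of 6 changed between the groups. *Ttr* made up most of the sum in every retina, with 57.2 FPKM in NL-1 and 97.8 in NL-8. The highest LD sums were in LD-8 (112 FPKM) and LD-6 (101 FPKM), where *Bmp2* measured 0.442 and 0.453 FPKM and *Bmp4* 1.18 and 1.77 FPKM. The part of the pigment epithelium or of other tissue in the *Bmp2* and *Bmp4* values was not tested.

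**Figure D3:**
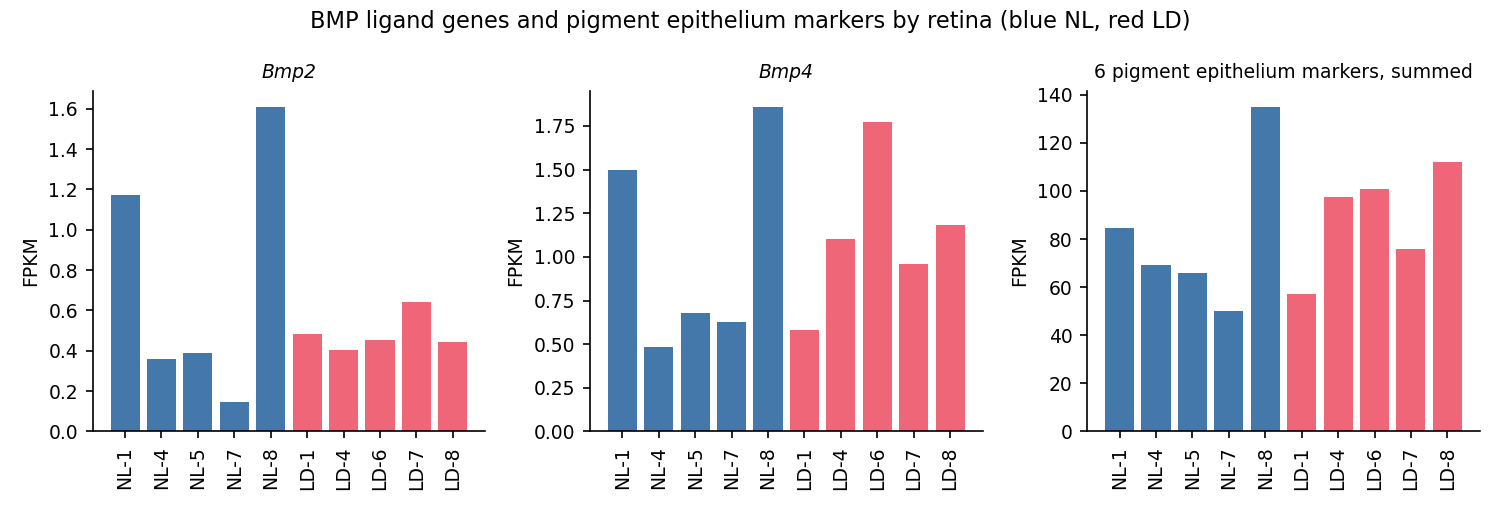
Level of *Bmp2*, of *Bmp4* and of 6 retinal pigment epithelium markers summed (vertical axes, FPKM from 0), as 1 bar per retina without error bars, NL in blue and LD in red. NL-1 and NL-8 are the highest NL bars in all 3 panels, with 1.17 and 1.61 FPKM of *Bmp2* and 84.5 and 135 FPKM of the summed markers.

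Of the 2 receptor genes, only the type II receptor passed the p limit. *Tgfbr2* measured 0.76, 0.702, 0.644, 0.478 and 0.601 FPKM in NL and 1.52, 1.38, 1.47, 1.31 and 0.862 FPKM in LD. The groups did not overlap, with LD-8 nearest to the NL values. The means were 0.637 ± 0.107 and 1.31 ± 0.262 FPKM (SD, n = 5 each), and the log2 fold change of 0.92 (SE 0.18, 95% interval 0.53 to 1.32; limma adjusted p = 0.0031) was under the 2-fold limit. It passed that limit without LD-8 (1.05), with 0.01 added to the FPKM (1.02), on the recovered reads in voom (1.03), as TPM (1.10) and without the factor per retina (1.04). The limma adjusted p rose above 0.01 with the closest pairs averaged (0.0478), without NL-1 and NL-8 (0.0136), with only the 8 retinas of shared numbers (0.0233) and without LD-6 (0.0101).

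*Tgfbr1*, the type I receptor that carries the kinase acting on SMAD2 and SMAD3, measured 7.52, 6.79, 7.02, 6.81 and 8.22 FPKM in NL and 8.07, 7.03, 7.01, 8.6 and 7.12 FPKM in LD. The groups overlapped over most of their range. The log2 fold change of 0.05 (SE 0.08, 95% interval -0.12 to 0.23; exact permutation p = 0.492) has an interval well under 2-fold. Per length, the type II receptor was the scarcer of the pair in all retinas, at 0.0701 to 0.103 times the *Tgfbr1* level in NL and 0.121 to 0.21 times in LD. *Tgfbr1* lies at chr4:47353222-47414931 on the plus strand.

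*Smad3*, the transcription factor that carries the TGF-beta and activin signal, measured 8.16, 10.6, 8.81, 8.09 and 7.55 FPKM in NL and 14.3, 19.6, 19.9, 15.7 and 14.9 FPKM in LD. The groups were well apart, with LD-4 and LD-6 highest. The means were 8.64 ± 1.18 and 16.9 ± 2.65 FPKM (SD, n = 5 each), with a log2 fold change of 0.96 (SE 0.12, 95% interval 0.70 to 1.21; limma adjusted p = 1.66e-04). It passed the 2-fold limit without LD-1 (1.01), without NL-4 (1.03), as TPM (1.06) and without the factor per retina (1.09). The log2 fold change was smaller without NL-1 and NL-8 (0.87, limma adjusted p = 0.00284) and with the closest pairs averaged (0.92, limma adjusted p = 0.00449).

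*Smad7*, the inhibitory SMAD that is also a target gene of the pathway, did not pass the test. It measured 3.65, 4.04, 4.46, 4.06 and 3.93 FPKM in NL and 4.1, 4.4, 4.14, 4.16 and 4.72 FPKM in LD, where only LD-8 was above every NL retina. The log2 fold change was 0.09 (SE 0.07, 95% interval -0.06 to 0.25; exact permutation p = 0.143). The FPKM ratio of *Smad3* to *Smad7* was 1.92 to 2.62 in NL and 3.16 to 4.8 in LD. The ratio of *Smad3* to *Smad2*, the other receptor-activated SMAD of this branch, was 0.509 to 0.722 in NL and 0.99 to 1.58 in LD, without overlap.

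**Figure D4:**
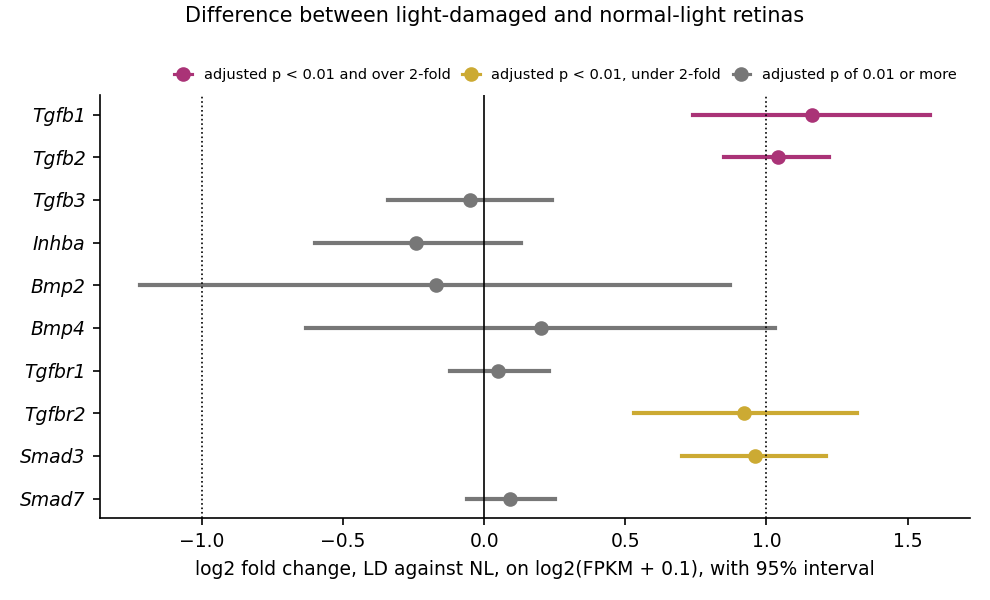
Difference between LD and NL for each of the 10 genes (horizontal axis, log2 fold change on log2(FPKM + 0.1)) as a point with its 95% interval from limma, n = 5 retinas a group, with dotted lines at 2-fold. *Tgfb1* (1.16) and *Tgfb2* (1.04) lie beyond the 2-fold line, *Smad3* (0.96) and *Tgfbr2* (0.92) just inside it, and the interval of *Bmp2* reaches from -1.22 to 0.87.

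For *Tgfb1*, *Tgfb2*, *Tgfbr2* and *Smad3* the exact permutation test gave p = 0.00794, the smallest that 5 against 5 retinas allow. Per length and by mean NL level, the order of the members was *Tgfb2* (13.1 FPKM), *Smad3* (8.64), *Tgfbr1* (7.27), *Tgfb3* (5.3), *Smad7* (4.03), *Inhba* (1.04), *Bmp4* (1.03), *Bmp2* (0.735), *Tgfbr2* (0.637) and *Tgfb1* (0.34). In NL the ranges of *Smad3* and *Tgfbr1* overlapped, as did those of *Inhba*, *Bmp4*, *Bmp2* and *Tgfbr2*, while *Tgfb2*, *Tgfb3* and *Smad7* each stood apart from their neighbours. In LD the means were 27.1 FPKM for *Tgfb2*, 16.9 for *Smad3*, 7.56 for *Tgfbr1*, 5.21 for *Tgfb3*, 4.3 for *Smad7*, 1.31 for *Tgfbr2*, 1.12 for *Bmp4*, 0.892 for *Tgfb1*, 0.86 for *Inhba* and 0.485 for *Bmp2*, so that *Tgfbr2* and *Tgfb1* had moved above *Inhba* and *Bmp2*, though their LD ranges overlapped with that of *Inhba*.

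Members also differed among the LD retinas. LD-4 and LD-6 were both above LD-1 and LD-7 in 5 members (*Tgfb2*, *Tgfb3*, *Smad3*, *Inhba* and *Bmp4*) and both below them in 2 (*Bmp2* and *Tgfbr1*). In *Tgfb3* the split was 5.82 and 6.57 FPKM against 3.98 and 4.06 FPKM. The same pairs were also the closest pairs over all genes, and the chi-square per gene between these 2 pairs was 31.3 to 38.6. The share of all genes with such a split was not counted, so it cannot be read as a trait of the members. LD-4 and LD-6 had the lowest summed rod markers (750 and 799 FPKM) and the highest summed astrocyte (150 and 147 FPKM, of which *Gfap* made up 127 in each), vascular endothelial (83.3 and 82.6 FPKM, of which *Kdr* made up 64.4 and 62.5), Müller glia (523 and 538 FPKM) and pericyte and smooth muscle markers (15.4 and 16.6 FPKM) of the LD retinas. The part of these cells in the split was not tested.

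Markers of several other cell types moved with the groups. Of 8 microglia and macrophage markers, 5 were higher in LD (*Cx3cr1*, *Aif1*, *Itgam*, *Cd68* and *Ptprc*). *Csf1r* (2.86 FPKM in NL and 5.01 in LD) and *Tmem119* (1.63 and 1.95 FPKM) had higher means in LD without being changed. The mean of *P2ry12* was lower in LD (1.32 against 2.03 FPKM in NL), also without being changed. All 8 summed to 10.2 to 13.2 FPKM in NL and 16.7 to 33.1 FPKM in LD. LD-8, which had the lowest *Tgfb1* and *Tgfbr2* of the LD retinas, had the lowest sum of microglial (16.7 FPKM), astrocyte (78.4 FPKM) and pericyte and smooth muscle markers (8.6 FPKM) alike. The highest microglial sum was in LD-1 (33.1 FPKM), which also had the highest *Tgfbr2* (1.52 FPKM). LD-6, with the highest *Tgfb1* (1.14 FPKM), had a microglial sum of 22.7 FPKM, below those of LD-1 and LD-7 (30.1 FPKM). Of 4 astrocyte markers, *Gfap* and *Aldh1l1* were higher. *Pax2* (0.269 FPKM in NL and 0.364 in LD) and *S100b*, with a lower mean in LD (6.13 and 4.45 FPKM), were not changed. All 4 summed to 15.2 to 34.1 FPKM in NL and 78.4 to 150 FPKM in LD, where most was *Gfap* (mean 98.7 FPKM). Of 6 Müller glia markers, *Vim* was higher (25.5 ± 6.32 FPKM in NL and 104 ± 21.8 in LD) and *Glul* lower (711 ± 94.8 and 165 ± 8.77 FPKM; SD, n = 5). The sum of the 6 was 844 to 1067 FPKM in NL and 380 to 538 FPKM in LD and was mostly *Glul* in NL, while *Slc1a3*, *Aqp4* and *Kcnj10* had higher and *Rlbp1* a lower mean in LD without being changed. Endothelial markers summed to 33.9 to 44.7 FPKM in NL and 49.4 to 83.3 FPKM in LD with 0 of 7 changed. Most of that sum was *Kdr* (27.1 to 37.1 FPKM in NL and 38.1 to 64.4 FPKM in LD). *Kdr* passed the p limit but not the 2-fold limit (log2 fold change 0.70; limma adjusted p = 0.00876). Each of the other endothelial markers overlapped between the groups. Pericyte and smooth muscle markers summed to 8.11 to 10.9 FPKM in NL and 8.6 to 16.6 FPKM in LD with 0 of 6 changed. Among them *Cspg4* (mean 0.076 FPKM in NL and 0.411 in LD) and *Notch3* (1.15 and 1.71 FPKM) did not overlap between the groups. Neither passed the p limit (limma adjusted p = 0.0303 and 0.0155), and the rest overlapped. Blood markers summed to 18.3 to 37.5 FPKM in NL and 8.38 to 24.5 FPKM in LD with *Hba-a2* at 0 in all retinas, and lens markers stayed under 1 FPKM in sum, between 0.203 and 0.855. The part of these cell types in the values of the members was not tested.

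The wider pathway was read from 7 lists with 120 genes in the table, members included, of which 99 could be tested. Of these, 12 changed, all of them higher in LD, which is 12.1% against 6.51% of all genes, and 19 passed the p limit alone (17 higher and 2 lower), a share near the 17% of all genes. Without the 10 members, 10 of 89 changed (11.2%), and the median log2 fold change was 0.21. The number of changed genes was 10 to 14 when single retinas were left out, 5 with 1 added to the FPKM, and 19 with the p limit alone.

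**Figure D5:**
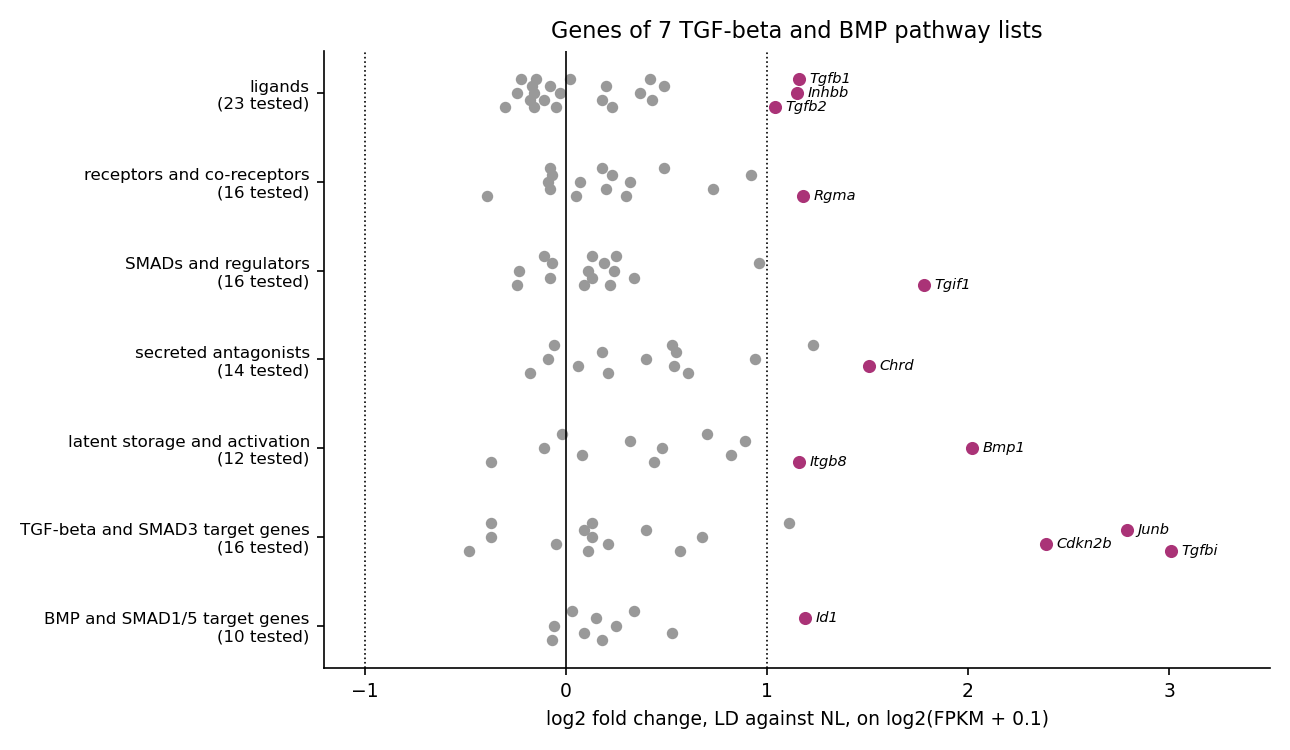
Log2 fold change of the tested genes of 7 pathway lists (horizontal axis, LD against NL on log2(FPKM + 0.1)), 1 point per gene, with changed genes in purple and named and all others in grey, and dotted lines at 2-fold. The 12 changed genes all lie to the right of the upper line, from *Tgfb2* at 1.04 to *Tgfbi* at 3.01, and a gene that belongs to several lists is drawn in each.

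Of 33 ligand genes 23 were tested, with a median log2 fold change of -0.03, and 3 changed: *Tgfb1*, *Tgfb2* and *Inhbb*. This was 13% of the tested ligand genes, against 6.51% of all genes. With the p limit alone the same 3 passed, a share below the 17% of all genes. *Inhbb*, the beta B subunit of activins, rose from 0.836 ± 0.178 to 1.98 ± 0.419 FPKM (SD, n = 5), and its log2 fold change was 1.15 (SE 0.19) with a limma adjusted p of 0.00104, while *Inhba* did not pass. The call for *Inhbb* was lost with the closest pairs averaged (adjusted p = 0.0259) and with 1 added to the FPKM (0.69). The ligand genes of highest level among those that did not change were *Inha*, the alpha subunit of inhibins, at 16 ± 1.63 and 18.3 ± 3.71 FPKM, and *Gdf11*, a ligand that acts through SMAD2 and SMAD3, at 5.31 ± 0.597 and 7.31 ± 1.62 FPKM (adjusted p = 0.044 in limma).

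Of 20 receptor and co-receptor genes 16 were tested, with a median of 0.19, and 1 changed (6.25%, near the 6.51% of all genes). *Rgma*, a co-receptor for BMPs, rose from 1.67 ± 0.169 to 3.93 ± 0.509 FPKM (SD, n = 5), and its log2 fold change was 1.18 (SE 0.11; limma adjusted p = 3.00e-05), which was under 2-fold with 1 added to the FPKM (0.88). Besides *Tgfbr2*, the p limit alone was passed by *Acvr1* and *Bmpr1a*, type I receptors for BMPs that are named here after their values were seen: *Acvr1* was at 3.01 ± 0.163 FPKM in NL and 5.09 ± 0.579 in LD, and *Bmpr1a* at 14.8 ± 1.36 FPKM in NL and 11.3 ± 0.98 in LD. The activin receptor genes of highest level did not pass: *Acvr1b* measured 30 ± 0.835 and 28.3 ± 1.04 FPKM and *Acvr2b* 14.8 ± 1.84 and 18.7 ± 4.92 FPKM.

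All 16 genes for SMADs and their regulators were tested, with a median of 0.13, and 1 changed (6.25%, near the 6.51% of all genes). *Tgif1*, a nuclear co-repressor of SMAD2 and SMAD3, was the gene that changed, from 0.468 ± 0.101 to 1.84 ± 0.35 FPKM (SD, n = 5), and its log2 fold change was 1.78 (SE 0.18; limma adjusted p = 4.29e-05), or 0.95 with 1 added to the FPKM. The p limit alone was also passed by *Smad3* and by *Smurf1* and *Zfyve9*, named here after their values were seen. *Smurf1*, a ubiquitin ligase for SMADs, was at 10.2 ± 0.643 FPKM in NL and 12 ± 0.552 in LD, and *Zfyve9*, which brings SMAD2 and SMAD3 to the receptor, at 12.4 ± 0.294 and 10.6 ± 0.317. *Smad4*, the partner of all signalling SMADs, measured 19.9 ± 1.25 and 16.9 ± 1.8 FPKM (limma adjusted p = 0.0364), and *Smad2* 14.5 ± 0.331 and 13.8 ± 0.915 FPKM.

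Secreted antagonists had a median of 0.47 over 14 tested of 16 genes, and *Chrd* changed (7.14%, near the 6.51% of all genes). *Chrd* encodes chordin, which binds BMPs outside the cell, and it rose from 1.07 ± 0.112 to 3.21 ± 0.196 FPKM (SD, n = 5), and its log2 fold change was 1.51 (SE 0.10; limma adjusted p = 1.87e-06). It shares 1385 bases with *Thpo* on the other strand, which was at 0.327 FPKM in NL and 0.82 in LD. Of the antagonists that did not change, *Twsg1*, which binds BMPs together with chordin, measured 11.8 ± 1.31 and 13.4 ± 0.634 FPKM, and *Nbl1*, a BMP antagonist, 10.5 ± 6.46 and 8.61 ± 2.76 FPKM.

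The list of latent storage and activation had a median of 0.46 over 12 tested of 14 genes. Of these, 2 changed (16.7%, against 6.51% of all genes), and 3 passed the p limit alone, which 17% of all genes passed. *Bmp1*, a metalloprotease that cleaves chordin and latent TGF-beta binding protein and is not a BMP ligand, rose from 2.39 ± 0.322 to 9.95 ± 1.05 FPKM (SD, n = 5), and its log2 fold change was 2.02 (SE 0.10; limma adjusted p = 4.33e-07). *Itgb8*, which pairs with the integrin alpha V chain to release TGF-beta from its latent form, rose from 3.58 ± 1.14 to 7.86 ± 0.47 FPKM, a log2 fold change of 1.16 (SE 0.17; limma adjusted p = 5.55e-04, or 0.0128 with the closest pairs averaged), which was just under 2-fold with 1 added to the FPKM (0.98). Its partner *Itgav* went from 6.8 ± 0.483 to 12.2 ± 2.35 FPKM, which passed the p limit but not the 2-fold limit (log2 fold change 0.82; limma adjusted p = 5.42e-04). *Ltbp3*, a latent TGF-beta binding protein, measured 16 ± 0.803 and 22 ± 4.77 FPKM (limma adjusted p = 0.0265).

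Of 17 genes known as TGF-beta and SMAD3 targets 16 were tested, with a median of 0.17, and 3 changed (18.8%, against 6.51% of all genes). With the p limit alone the same 3 passed, a share near the 17% of all genes. *Tgfbi*, a matrix protein named for its induction by TGF-beta, rose from 0.197 ± 0.142 to 2.12 ± 0.273 FPKM (SD, n = 5; log2 fold change 3.01, SE 0.29; limma adjusted p = 3.13e-05). Its log2 fold change was 1.38 with 1 added to the FPKM and 3.62 with 0.01 added. *Junb*, an AP-1 transcription factor that many stimuli induce, rose from 12.4 ± 0.664 to 87.2 ± 15.7 FPKM (log2 fold change 2.79, SE 0.11; limma adjusted p = 7.48e-08). *Cdkn2b*, an inhibitor of cell cycle kinases, rose from 0.496 ± 0.143 to 3.11 ± 1.17 FPKM (log2 fold change 2.39, SE 0.26; limma adjusted p = 8.34e-05), from only 8 to 23 reads per NL retina, and its log2 fold change was 1.42 with 1 added to the FPKM and 2.60 with 0.01 added. The other 13 did not change, among them *Pmepa1*, a feedback inhibitor of the pathway, at 10.2 ± 0.493 and 11.3 ± 2.28 FPKM, *Fn1*, which encodes fibronectin, at 5.71 ± 0.621 and 8.81 ± 2.72 FPKM, and *Smad7*.

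Of 12 genes known as BMP and SMAD1/5 targets 10 were tested, with a median of 0.16, and 1 changed (10%, against 6.51% of all genes). With the p limit alone only the same gene passed, a share below the 17% of all genes. *Id1*, an inhibitor of helix-loop-helix transcription factors, was the gene that changed, from 3.23 ± 1.34 to 6.95 ± 0.522 FPKM (SD, n = 5; log2 fold change 1.19, SE 0.26; limma adjusted p = 0.00576). Its call was lost when any of LD-1, LD-4, LD-6, LD-7, LD-8, NL-4, NL-5 or NL-7 was left out, with adjusted p of 0.01 to 0.016 or, without NL-7, a log2 fold change of 0.98. The related *Id4* measured 15.9 ± 1.91 and 19 ± 1.05 FPKM (limma adjusted p = 0.0326) and *Id3* 7.6 ± 1.63 and 10.8 ± 1.06 FPKM (limma adjusted p = 0.0129), and neither passed.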

How the data were processed

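Retinal RNA was extracted with TRIzol and made into libraries with a TruSeq kit, per the labels. The submitters' processing notes name Bowtie2 2.0.6, TopHat2 2.0.9 and build mm8, yet the gene positions in the table are on GRCm38 (53499 of 54532 genes have the same start and end in GENCODE M21). The counting program, the annotation and the use of strand are not given in the sources used here. The authors deposited 1 table of FPKM values, normalized per gene length and per library size with a factor of 0.951 to 0.968 in NL and 1.041 to 1.069 in LD. Values above 0 were whole multiples of 1 read in 100% of cases (tolerance 0.1%).

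Here log2(FPKM + 0.1) was fitted with limma 3.58.1 (R 4.3.3), with an intensity trend and no covariate, over all genes that reached 0.1 FPKM in 5 or more retinas, with Benjamini-Hochberg adjustment over all genes tested. Single members were also compared by a two-sided exact permutation test with scipy 1.17.1. Alternatives were 15 other settings, leaving out each of the 10 retinas, and, chosen after seeing the data, leaving out NL-1 and NL-8 together. Named are all members and, of each pathway list, the changed genes (at most the 6 of largest change) and the 2 unchanged genes of highest mean FPKM. The members and lists were chosen with earlier results of these data known. 1 gene of the rod marker list is not reported here and was left out of its sum.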

Additional observations from a re-analysis of the deposited data

Results flagged for a closer look

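Among 68 groups of 5 values (34 named genes in NL and in LD), 1 held a value that stood far from the rest of its group: *Rgma*, a co-receptor for BMPs, measured 3.04 FPKM in LD-8, where the rest of the LD group ranged from 4.03 to 4.27 FPKM, and still lay above its highest NL value of 1.92 FPKM. Chance marks about 1 in 20 groups, or 3.4 of 68.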

How the results depend on the processing

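The number of changed members was 2, and it was 1 with the 8 retinas of shared numbers, with the closest pairs averaged or with a filter of 1 FPKM (which leaves *Tgfb1*, *Tgfbr2*, *Bmp2* and *Inhba* untested), 0 with 1 added to the FPKM, 4 as TPM, without the factor per retina or with no minimum fold at adjusted p of 0.01 or 0.05, and 1 to 3 when single retinas were left out (1 without LD-4 or LD-6, 3 without LD-1, LD-8 or NL-4). Over all genes, 1595 changed, and 4178 at adjusted p of 0.01 with no minimum fold, 6818 at 0.05, 816 with 1 added and 1379 to 1603 when single retinas were left out. Of the wider pathway 12 changed, and 19, 30 and 5 under the same 3 settings and 10 to 14 when single retinas were left out. The direction turned for *Bmp4* (-0.07 with 8 retinas, with or without the block), *Tgfb3* (0.05 as TPM, 0.08 without the factor, -0.14 to 0.04 with single retinas left out), *Acvr1b* (0.02 as TPM, 0.05 without the factor), *Smad2* (0.03 and 0.05), *Nbl1* (0.01 as TPM, 0.04 without the factor, 0.00 with sample weights, 0.32 without NL-1 and NL-8, -0.38 to 0.17 with single retinas left out) and *Bmp2* (0.61 without NL-1 and NL-8, -0.53 to 0.17 with single retinas left out), none of which passed the test. The causes were not tested.

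NL and LD share the replicate numbers 1, 4, 7 and 8. Deviations of same-numbered retinas correlated at 0.06, 0.07, -0.01 and -0.09. Whether the shared numbers mark paired retinas was not tested. With the replicate number as a block, 808 genes, 6 pathway genes and 0 members changed (limma adjusted p = 0.0373 for *Tgfb1*, 0.0435 for *Tgfbr2* and 0.012 for *Itgb8*, log2 fold change 0.98 for *Tgfb2*). The median log2 fold change of all genes was 0.11 without the factor and 0.09 as TPM, and the higher share of calls was 63.5%, against 72.2% and 72.7%. Depth limits *Bmp2*, *Bmp4* and *Tgfb1*, with 11, 23 and 29 reads in their lowest retina.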
